A study of Canis lupus familiaris with 8 samples.

Results

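The pigment cell genes of a canine skin panel were examined in 2 dogs with Vogt-Koyanagi-Harada/uveodermatologic syndrome (VKH), 1 dog with vitiligo and 5 healthy dogs. The 4 members are TYR, DCT, MC1R and KIT. They were found by probe name among the 160 panel genes, of which 4 are housekeeping genes and 156 were tested. The RefSeq transcript that each of the 4 probes targets carries the same gene symbol in the RefSeq annotation of the dog, so all 4 names matched. Of 12 melanocyte genes listed for this purpose these 4 were measured, and the usual markers of the cell, such as PMEL, MLANA, MITF and SOX10, were not among the probes analysed here. A melanocyte identity of the signal thus rests on TYR and DCT, since KIT is also made by mast cells.

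Melanocytes make melanin in melanosomes and pass it to the surrounding keratinocytes of the epidermis and hair bulb. TYR encodes tyrosinase, which carries out the first and rate-limiting oxidation of tyrosine. DCT encodes dopachrome tautomerase, which acts further along the pathway to eumelanin, the dark pigment. MC1R is the receptor for melanocortins on the melanocyte surface, and its signalling favours eumelanin over the red and yellow pheomelanin. KIT is the receptor tyrosine kinase for stem cell factor and is needed for melanocyte migration and survival. In VKH and vitiligo melanocytes are the target of an autoimmune response, and the comparison of these genes with healthy skin addresses whether transcripts of the target cell differ in lesions.

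All biopsies were archival, fixed and paraffin embedded, and each library was 1 dog. By the sample labels the VKH dogs were a male Bernese Mountain Dog of 2.5 years and a male Husky of 2 years, and the vitiligo dog was a neutered male Labrador cross of 1 year. The paper describes the age and some other details of the second VKH dog and the vitiligo dog differently. The healthy dogs were 3 spayed females and 2 neutered males of 6 to 12 years and of 5 breeds or crosses, all sampled at leg margins of amputations, whereas the cases were biopsied by shave or punch and the paper names the nose as their site. The coat colour of the healthy dogs is not given in the sources used here. Disease therefore cannot be told apart from age, body site and type of biopsy, and breed differs between single dogs.

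RNA was counted with NanoString probes, which carry a fluorescent barcode read once per hybridized molecule without amplification. The panel genes summed to 209889 to 742667 counts per dog. Counts were divided by a factor per dog from the geometric mean of the housekeeping genes B2M, RPL13A, CCZ1 and HPRT, and such values are called scaled counts. Background was set per dog at 2 SD above the mean of the 8 negative control probes, which gave 16.6 to 27.8 raw counts. Differences were tested with edgeR's quasi-likelihood test over the 156 genes, with Benjamini-Hochberg adjustment and a threshold of 0.05. Fewer melanocytes and less RNA per melanocyte cannot be told apart in such bulk samples.

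None of the 4 melanocyte genes passed the test in VKH, in the vitiligo dog or in the 3 cases together. In VKH 43.6% of the 156 genes passed, in vitiligo 24.4% and in the 3 cases 50.6%. At an unadjusted p under 0.05 in edgeR, 1 member (TYR, in VKH) was lower, and with DESeq2 TYR alone passed in VKH after adjustment, whereas limma gave 0. The median log2 fold change of the 4 members was -0.29 in VKH, 0.03 in vitiligo and -0.21 in the 3 cases, against medians of -0.01, 0.29 and 0.07 over the 156 genes. Of the 4 genes TYR had the lowest log2 fold change in VKH, DCT spread most between healthy dogs, MC1R was above background in 6 of 8 dogs, and KIT was above it in every dog.

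**Figure D1:**
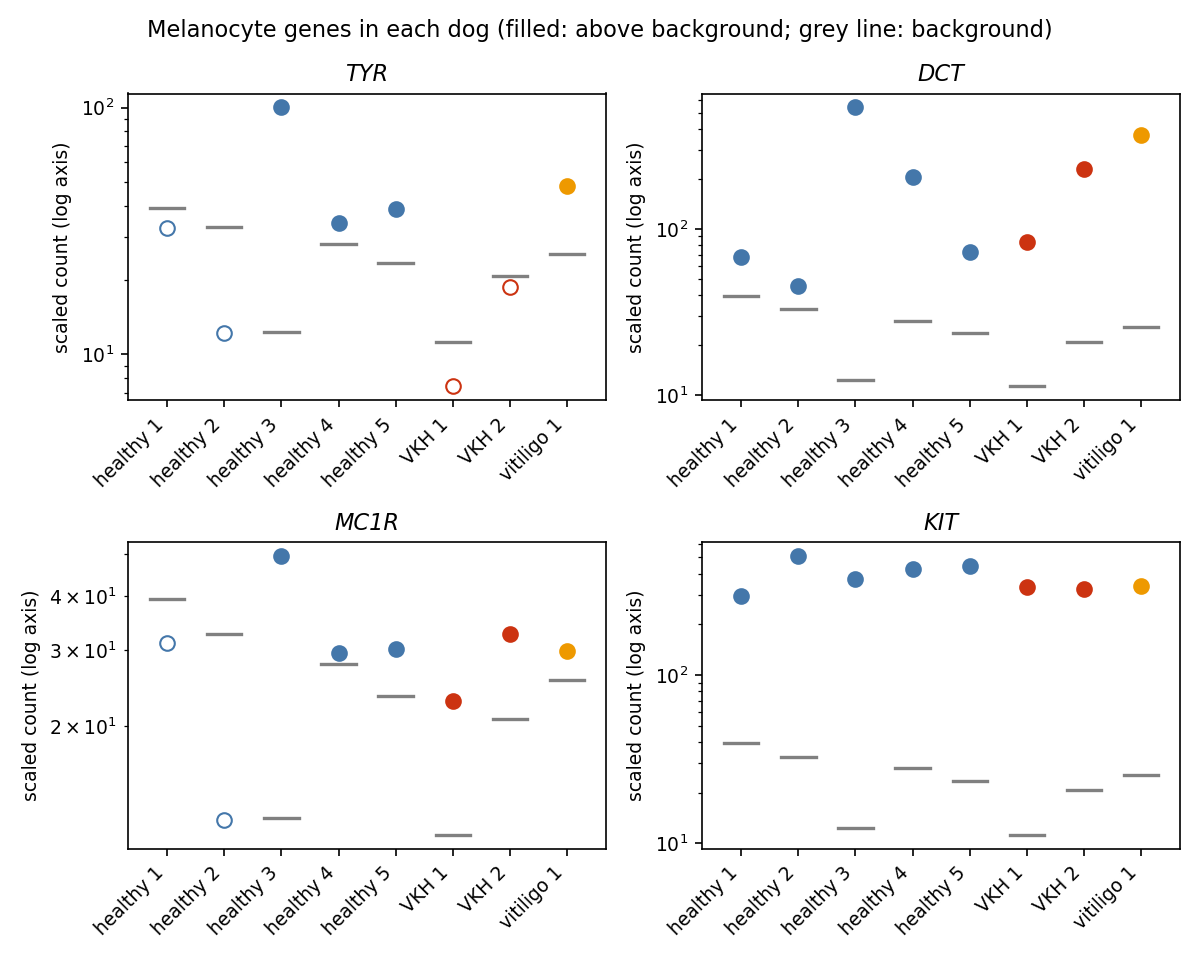
Scaled count (log axis) of TYR, DCT, MC1R and KIT in each of the 5 healthy, 2 VKH and 1 vitiligo dogs, with a grey line at the background of that dog and open points for values below it. The TYR points under the line are those of VKH replicates 1 and 2 and of healthy replicates 1 and 2, whereas DCT and KIT are above it in all 8 dogs.

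TYR was counted 11 and 15 times in the VKH dogs and 42 times in the vitiligo dog. In the healthy dogs the raw counts were 23, 10, 186, 30 and 40 for replicates 1 to 5. The 95% Poisson intervals, which cover counting error only, were 5.49 to 19.7 and 8.40 to 24.7 in the VKH dogs and 30.3 to 56.8 in the vitiligo dog. TYR lay above background in 3 of 5 healthy dogs, in the vitiligo dog and in 0 of 2 VKH dogs. In VKH replicate 1, 3 of the 8 negative controls reached or exceeded the TYR count, and in VKH replicate 2 it was 1. In healthy replicate 2 the number was 6, so TYR was within the negative controls in a healthy dog as well.

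After scaling, TYR was 7.43 and 18.8 in the VKH dogs and 48.3 in the vitiligo dog. The healthy values were 32.6, 12.2, 100.1, 34.1 and 38.9. Both VKH dogs lay below 4 of the 5 healthy dogs and on either side of healthy replicate 2, and the vitiligo dog lay inside the healthy range. The log2 fold change was -1.81 in VKH (95% interval -3.55 to -0.07, adjusted p = 0.0791 in edgeR). An exact permutation test over the dogs, two-sided, gave p = 0.19 for VKH, where 2 dogs against 5 cannot go below 0.0952. In the vitiligo dog the log2 fold change was 0.12 (95% interval -1.84 to 2.07, adjusted p = 0.927 in edgeR), which leaves room for changes of several fold in either direction. For the 3 cases it was -0.86 (95% interval -2.41 to 0.68, adjusted p = 0.313 in edgeR).

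With TYR under the background of each VKH dog, the size of its difference is not exact. Setting counts under 20 to 20 gave -1.32 (adjusted p = 0.101 in edgeR), and subtracting the mean of the negative controls gave -2.58 (adjusted p = 0.284). The direction was negative in VKH in 24 of 24 alternative settings, and the adjusted p was under the threshold in 3 of them. These were scaling by the library total (-2.70, adjusted p = 0.0238), DESeq2 (-1.79, adjusted p = 0.0291) and edgeR without healthy replicate 2 (-2.05, adjusted p = 0.0373). Without healthy replicate 3 the value in VKH was -1.22 (adjusted p = 0.137). Against the 2 male healthy dogs it was -0.88 (adjusted p = 0.397).

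**Figure D2:**
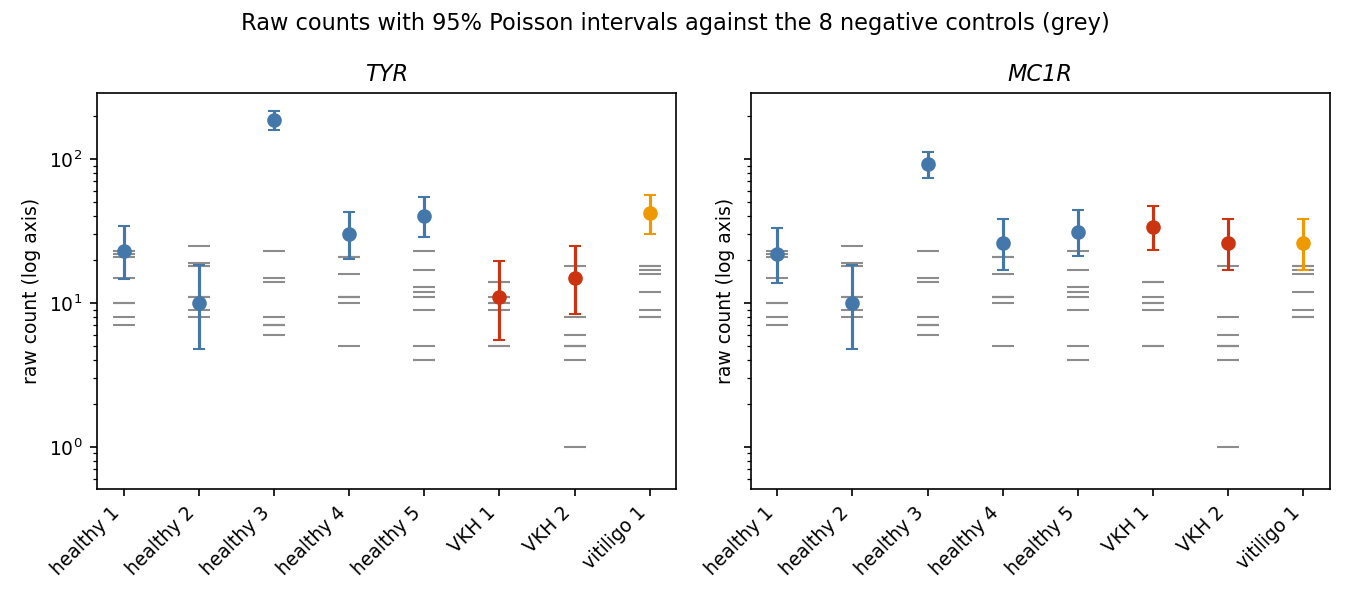
Raw counts (log axis) of TYR and MC1R in each dog as points with 95% Poisson intervals, beside the 8 negative control probes of the same dog as grey dashes. The TYR points of both VKH dogs lie among the negative controls, and healthy replicate 3 is the highest for both genes, at 186 and 92 counts.

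DCT was above background in all 8 dogs, with raw counts of 124 and 183 in VKH, 320 in vitiligo and 48, 37, 1000, 181 and 75 in healthy replicates 1 to 5. The scaled counts were 83.7 and 229.7 in VKH, 368 in vitiligo and 67.9, 45.1, 538, 206 and 72.9 in the healthy dogs. Each of the 3 cases thus lay inside the healthy range and above the healthy median of 72.9. The order over the dogs ran from healthy replicate 3 over the vitiligo dog, VKH replicate 2, healthy replicate 4 and VKH replicate 1 down to healthy replicates 5, 1 and 2.

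The group means of DCT were 186 ± 207 (SD, n = 5 healthy dogs) and 157 ± 103 (SD, n = 2 VKH dogs), so the healthy spread exceeded the mean itself. The log2 fold change was -0.26 in VKH (95% interval -2.26 to 1.73, adjusted p = 0.816 in edgeR) and 0.97 in vitiligo (95% interval -1.42 to 3.36, adjusted p = 0.558). For the 3 cases it was 0.27 (95% interval -1.43 to 1.98, adjusted p = 0.812). The sign in VKH turned without healthy replicate 3, to 0.67 (adjusted p = 0.399), and without VKH replicate 1, to 0.29 (adjusted p = 0.866). Without healthy replicate 3 the vitiligo value was 1.91 (adjusted p = 0.0883). Without it, the other dogs gave an exact permutation p of 0.114 for the 3 cases, two-sided.

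After TYR, MC1R was the member least clear of background. Its raw counts were 34 and 26 in VKH, 26 in vitiligo and 22, 10, 92, 26 and 31 in healthy replicates 1 to 5, and it exceeded background in 6 of 8 dogs, healthy replicates 1 and 2 being the exceptions. Scaled counts were 23.0 and 32.6 in VKH, 29.9 in vitiligo and 31.1, 12.2, 49.5, 29.6 and 30.1 in the healthy dogs. The 3 cases lay within the healthy range, and the vitiligo dog differed from healthy replicates 4 and 5 by less than the counting error. The log2 fold change was -0.17 in VKH (95% interval -1.27 to 0.93, adjusted p = 0.791 in edgeR) and -0.05 in vitiligo (95% interval -1.50 to 1.40, adjusted p = 0.958). The sign in VKH turned when the scaling omitted B2M, to 0.44, and when the positive controls set the scaling, to 0.24.

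Other parts of the melanocortin system were on the panel. POMC, which encodes the precursor of the melanocortin peptides, was at 1 to 7 counts and above background in 0 of 8 dogs, so its level was not measurable in this skin. MC5R, a melanocortin receptor known from sebaceous glands, was above background in all 8 dogs at 115 to 802 counts, and MC2R, the corticotropin receptor, in 5 of 8. Their log2 fold changes in VKH were -0.70 for MC5R (adjusted p = 0.312 in edgeR) and 0.52 for MC2R (adjusted p = 0.346). These receptors were added to the description after their values were seen.

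KIT was the most evenly measured of the 4 genes. Its raw counts were 493 and 258 in VKH, 293 in vitiligo and 208, 418, 688, 375 and 454 in healthy replicates 1 to 5, all far above background. After scaling, the 3 cases lay close together at 333, 324 and 337, and the healthy dogs at 294, 509, 370, 427 and 441. All 3 cases were below the healthy median of 427, but healthy replicate 1 was lower than each of them, so the groups overlapped. None of the 4 members separated the 3 cases from the healthy dogs, whereas 45.5% of the 156 genes did so, 34.6% with all cases higher and 10.9% with all cases lower. None separated the VKH dogs from the healthy dogs either, which 55.1% of the genes did, 36.5% higher and 18.6% lower.

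The log2 fold change of KIT was -0.31 in VKH (95% interval -1.03 to 0.40, adjusted p = 0.43 in edgeR), -0.28 in vitiligo (95% interval -1.23 to 0.67, adjusted p = 0.681) and -0.30 in the 3 cases (95% interval -0.89 to 0.28, adjusted p = 0.358). The exact permutation p for the 3 cases was 0.214, two-sided, where 3 dogs against 5 cannot go below 0.0357. Under scaling by the library total KIT was lower past the threshold, with -1.08 for VKH (adjusted p = 0.0369) and -0.95 for the 3 cases (adjusted p = 0.0272). When the scaling omitted B2M the sign in VKH turned, to 0.27. Among the 4 genes the interval of KIT was the narrowest in each of the 3 comparisons with healthy skin.

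**Figure D3:**
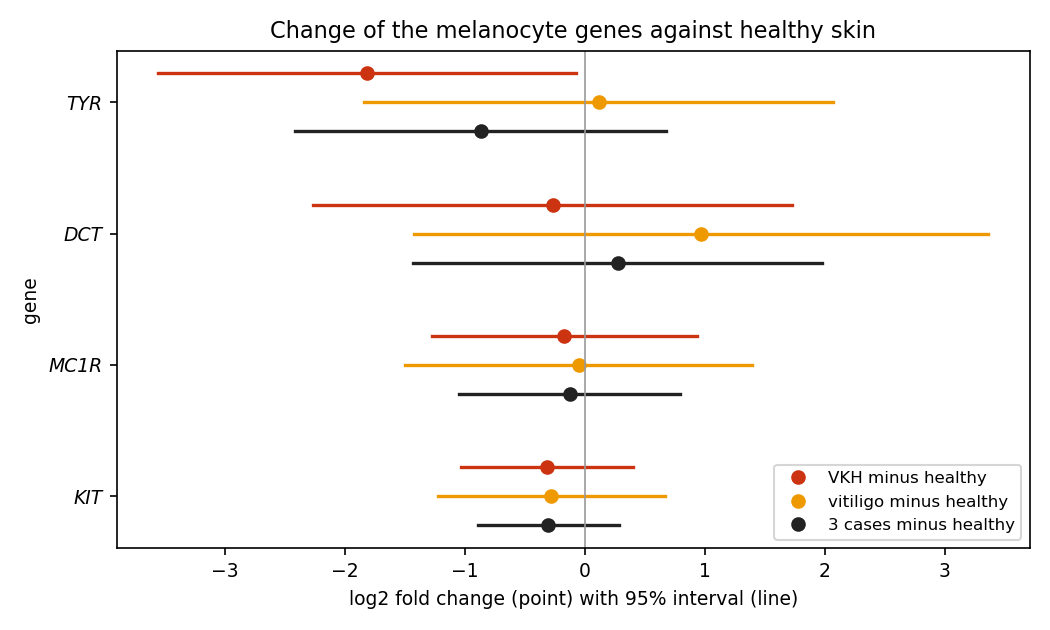
Log2 fold change (points) and 95% interval (lines) of each gene in VKH, in vitiligo and in the 3 cases, each against the 5 healthy dogs, from edgeR. The interval of TYR in VKH, -3.55 to -0.07, is the single one that does not reach 0, although its adjusted p is 0.0791.

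VKH and vitiligo were also tested against each other. None of the 4 members passed, and 0.641% of the 156 genes did. TYR was lower in VKH than in the vitiligo dog by a log2 value of -1.93 (95% interval -4.17 to 0.31, adjusted p = 0.723 in edgeR), and DCT by -1.24 (95% interval -4.02 to 1.54, adjusted p = 0.949). The single vitiligo dog has no spread of its own and borrows that of the other groups, and the intervals allow both no difference and a large one.

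The healthy dogs differed widely among themselves in the melanin synthesis genes. The SD of the log2 scaled count over the 5 healthy dogs was 1.44 for DCT and 1.04 for TYR, which ranked 5 and 14 among 156 genes from the most variable, against a median of 0.53. It was 0.70 for MC1R, at rank 44, and 0.30 for KIT, at rank 131. TYR, DCT and MC1R were each highest in healthy replicate 3, an 8-year-old female Labrador Retriever, and lowest in healthy replicate 2, a 12-year-old male German Shepherd Dog cross. Healthy replicate 3 was the highest healthy dog in 15.4% of all 156 genes. That dog also had the highest scaling factor of the healthy dogs, and its panel genes summed to 675018 counts, whereas those of healthy replicate 2 summed to 370814.

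Ratios of 2 genes counted in the same dog do not depend on the scaling between dogs. Probes differ in efficiency, so a ratio was compared between dogs only and not read as relative abundance. The count of DCT over that of TYR was 11.3 and 12.2 in the VKH dogs and 7.62 in the vitiligo dog. In healthy replicates 1 to 5 it was 2.09, 3.70, 5.38, 6.03 and 1.88. By these counts all 3 cases lay above all 5 healthy dogs. However, TYR did not reach background in VKH replicates 1 and 2 or healthy replicates 1 and 2. The order of those dogs is not established. Within counting error the order of the vitiligo dog and healthy replicate 4 is not established either. DCT over TYR was the 1 ratio of the 6 between members in which cases and healthy dogs did not overlap by the counts. Among ratios of the other panel genes, 18.1% to TYR and 4.52% to DCT did not overlap, in either direction. To MC1R it was 29.7% and to KIT 42.6%.

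The mean log2 ratio of DCT over TYR was higher by 1.53 in the 3 cases than in healthy skin (two-sided exact permutation p = 0.0357, the smallest this design allows, and adjusted p = 0.214 over the 6 pairs). In VKH the difference was 1.72 (exact permutation p = 0.0952, also the smallest possible, adjusted p = 0.286). The ratio did not pass after correction, and both p values rest on TYR counts under background in 4 dogs. Where TYR lay below background the ratio has only a lower bound, taken with TYR at the background of that dog. It was at least 7.44 and 11.0 in the VKH dogs and at least 1.73 and 1.38 in healthy replicates 1 and 2, so for those 2 healthy dogs a ratio as high as in the cases is possible. Among the dogs with measured TYR, the vitiligo dog at 7.62 stood above healthy replicates 3, 4 and 5 by the counts. The nearest was healthy replicate 4 at 6.03. The Poisson intervals of TYR were 30.3 to 56.8 in the vitiligo dog and 20.2 to 42.8 in healthy replicate 4. Within counting error the vitiligo dog is thus not set apart from healthy replicate 4 in this ratio. With the negative controls subtracted the groups overlapped, and the difference in the 3 cases was 1.77 (exact permutation p = 0.143, two-sided).

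**Figure D4:**
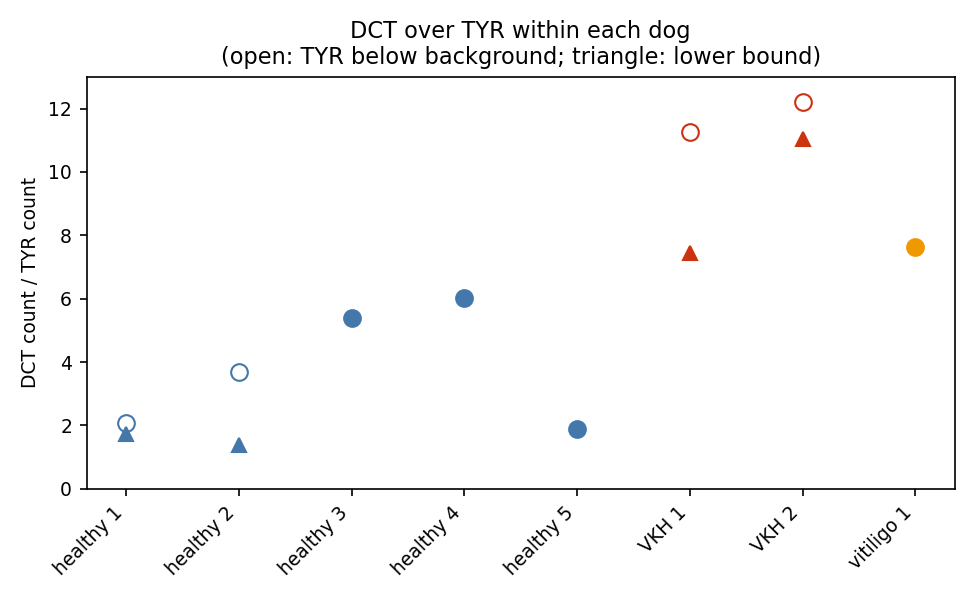
Ratio of the DCT count to the TYR count in each dog, with open points where TYR was below background and triangles at the lower bound of the ratio in those dogs. The cases lie at 7.62 to 12.2 and the healthy dogs at 1.88 to 6.03, by the counts. However, the values of healthy replicates 1 and 2 are bounded on the lower side only. The vitiligo dog and healthy replicate 4 are not set apart within counting error.

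TYR over MC1R could be read in 4 dogs in which both genes were above background. The count ratio was 1.62 in the vitiligo dog and 2.02, 1.15 and 1.29 in healthy replicates 3, 4 and 5. In the VKH dogs MC1R was measured and TYR was not. With TYR set to the background of each dog, the ratio by the counts was at most 0.49 and 0.638 there. Both bounds lay below the 4 measured ratios, but they take the MC1R counts as exact. The Poisson intervals of MC1R were 23.5 to 47.5 and 17.0 to 38.1 in the VKH dogs. In healthy replicate 4 they were 20.2 to 42.8 for TYR and 17.0 to 38.1 for MC1R. Within counting error the VKH dogs are thus not set apart from healthy replicate 4. In healthy replicates 1 and 2 neither gene was above background, and these dogs give no ratio. Over all dogs, by the counts as deposited, both VKH dogs were below all healthy dogs in this ratio, as were 11.0% of the ratios of the other panel genes to MC1R. The mean log2 ratio differed by -1.47 (two-sided exact permutation p = 0.0952, the smallest possible, adjusted p = 0.286 over the 6 pairs). With the negative controls subtracted the VKH dogs stayed below (-2.73, exact permutation p = 0.0952, adjusted p = 0.571). Both p values rest on counts under background in 4 dogs, so this order is not established. In the other 4 pairs the VKH dogs and the healthy dogs overlapped.

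The melanocyte genes were next set against cell types that share their surroundings. KRT5 and KRT14, keratins of the basal keratinocytes among which epidermal melanocytes sit, were measured in all 8 dogs and neither passed in any comparison with healthy skin. Their summed scaled count was 31824 to 94253 in the healthy dogs, 54062 to 71283 in VKH and 58312 in vitiligo. By the counts as deposited, the ratio of TYR to these keratins was lower in both VKH dogs than in every healthy dog, as was the ratio of 27.9% of the other panel genes. The mean log2 ratio differed by -1.95 (two-sided exact permutation p = 0.0952, adjusted p = 0.381 over the 4 members). With TYR under background in 4 of the 8 dogs this order is not established, and with the negative controls subtracted the VKH and healthy dogs overlapped (-2.30, exact permutation p = 0.19). The vitiligo dog, at -9.16, was near the healthy mean of -9.16 ± 0.98 (SD, n = 5). DCT relative to the keratins differed by -0.23 in VKH (adjusted p = 0.952, exact permutation test), and KIT by -0.72 (adjusted p = 0.381).

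KIT is also the defining receptor of mast cells, so the mast cell genes CPA3 (carboxypeptidase A3), MS4A2 (the beta chain of the high-affinity IgE receptor) and HDC (histidine decarboxylase) bear on it. All 3 were above background in every dog, and none was at 0. CPA3 fell in VKH, with a log2 fold change of -1.42 (adjusted p = 0.0127 in edgeR), and 1 of the 3 genes thus passed, against 12.2% of all genes that were lower. For MS4A2 the log2 fold change was -0.58 (adjusted p = 0.168) and for HDC it was -0.38 (adjusted p = 0.454). The 3 genes summed to scaled counts of 340 to 367 in VKH, 656 in vitiligo and 543 to 778 in healthy skin. The call of CPA3 was lost in 7 of 24 alternative settings, among them with unscaled counts, with housekeeping scaling that omits B2M and without either VKH dog. KIT relative to the 3 mast cell genes differed by 0.47 in the mean log2 ratio in VKH (exact permutation test, two-sided, adjusted p = 0.667), and the 2 groups overlapped. How far mast cells carry the KIT signal was not tested.

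T cell genes were higher in the 2 VKH dogs and in the 1 vitiligo dog. Of 4 listed T cell genes 2 were measured, CD3E of the T cell receptor complex and CD8A of cytotoxic T cells. Their summed scaled count was 110 to 192 in the healthy dogs, 1251 to 1628 in VKH and 1112 in vitiligo. Both genes passed in VKH and in vitiligo, against 31.4% and 21.8% of the 156 genes that were higher there. PECAM1, an endothelial adhesion molecule, fell in VKH (log2 fold change -1.54, adjusted p = 0.0178 in edgeR) and was at -0.94 in vitiligo, where it did not pass (adjusted p = 0.265). Its scaled counts were 1457 to 1628 in VKH, 2339 in vitiligo and 2770 to 7084 in healthy skin. CD163, a macrophage receptor, did not pass in VKH (-1.30, adjusted p = 0.077) or in vitiligo (-0.91, adjusted p = 0.423), and its scaled counts of 397 to 663 in VKH overlapped those of 521 to 2388 in healthy skin. The part of such shifts in cell content in the values of the melanocyte genes was not tested.

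Of 19 genes listed for secreted signals that act on melanocytes, 9 were measured. In VKH 3 were higher and 1 was lower, against 31.4% and 12.2% of the 156 genes, and in vitiligo 1 was higher and 1 was lower, against 21.8% and 2.56%. In cultured human melanocytes TNF, IFNG and IL6 are known to reduce pigment synthesis. TNF had scaled counts of 151 to 190 in VKH, 101 in vitiligo and 38.7 to 67.1 in the healthy dogs, and rose by 1.71 in VKH (adjusted p = 0.00229 in edgeR). IFNG rose by 1.47 in VKH (adjusted p = 0.0167) but was above background in 4 of 8 dogs. IL6 went the other way, at 22.6 to 27.7 in VKH and 17.2 in vitiligo against 190 to 1456 in healthy skin, a log2 fold change of -4.53 in VKH (adjusted p = 0.00362). Its raw counts were 18 to 41 in VKH, where background was 16.6 and 16.7. In the vitiligo dog it was at 15 counts, under the background of 22.2. The size of the fall is therefore not exact.

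SFRP2, a secreted protein that binds WNT ligands, was the other riser of this list in VKH, at 4.77 (adjusted p = 0.000271 in edgeR), and the 1 riser in vitiligo, at 2.57 (adjusted p = 0.0244). It was higher in VKH in 24 of 24 alternative settings past the threshold, and in vitiligo in 18 of 22, the call being lost with TMM, median of ratios, positive-control scaling and male healthy dogs. The TGF-beta ligand TGFB3 passed in the comparison of the 3 cases, with 0.93 (adjusted p = 0.0214), against 36.5% of genes that were higher there, and lost its call in 9 of 23 alternative settings, among them TMM, the library total, without VKH replicate 2 and without the vitiligo dog. IFNG in VKH lost its call in 6 of 24 alternative settings, TNF in 1, with the library total, and IL6 in 1, the methods' test on unscaled counts.

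The panel genes with the most similar profile over the 8 dogs were found by the root mean square difference of centred log2 scaled counts, among 129 other genes above background in at least 4 dogs. For TYR these were MC1R, at 0.75, and EDAR, the ectodysplasin receptor of hair follicle placodes, at 0.81, and DCT came in place 12 at 0.93. For DCT they were LAG3, an inhibitory receptor of T cells, at 0.88, and CYP1A1, a target of the aryl hydrocarbon receptor, at 0.89. MC1R and TYR followed in places 3 and 4. For MC1R they were CYP1A1, at 0.40, and ADAR2, an RNA-editing enzyme, at 0.44, with TYR in place 41 and DCT in place 61. For KIT they were HIF1A, the hypoxia-inducible factor, at 0.18, and TGFB1 at 0.24, whereas TYR and DCT stood at places 93 and 105 for KIT. TYR, LAG3 and EDAR were above background in 4 or 5 of 8 dogs and MC1R in 6, so part of their likeness was measured near background. The places also depend on the size of a gene's own spread, which was 0.51 for MC1R and 1.20 for DCT. By Pearson correlation over the 8 dogs MC1R was at 0.76 with TYR and 0.74 with DCT. With CYP1A1 it was at 0.70, with ADAR2 at 0.58 and with KIT at -0.53. These correlations include healthy replicates 1 and 2, where MC1R and TYR were under background. They also include healthy replicate 3, the highest dog for TYR, DCT and MC1R.

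The level of all 4 genes moved with the scaling. B2M was counted 92886 to 167909 times in the 3 cases and 18028 to 72537 times in the healthy dogs, and it is 1 of the 4 genes that set the scale. When the scaling omitted B2M, the values in VKH were -1.21 for TYR, 0.33 for DCT, 0.44 for MC1R and 0.27 for KIT, while the median over all 156 genes moved from -0.01 to 0.57. With the library total they were -2.70, -1.17, -1.02 and -1.08, against a median of -0.87. The genes did not all move alike. From housekeeping scaling to no scaling DCT went from -0.26 to -0.80 in VKH, and KIT from -0.31 to -0.19. All 7 scalings start from the same counts. The place of the 4 members below the median of the 156 genes in VKH, seen with each of them, is therefore 1 observation. It did not hold in every other setting. For DCT it failed with limma, at 0.21 against a median of 0.17, and without VKH replicate 1, at 0.29 against 0.23. For MC1R it failed with the negative controls subtracted, at 0.20 against 0.15. Both DCT and MC1R were above the median against the male healthy dogs, at 0.31 and 0.39 against 0.04. The same held without healthy replicate 3, at 0.67 and 0.095 against 0.01. With the dog number as a block they were 1.32 and 0.43 against 0.04.

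**Figure D5:**
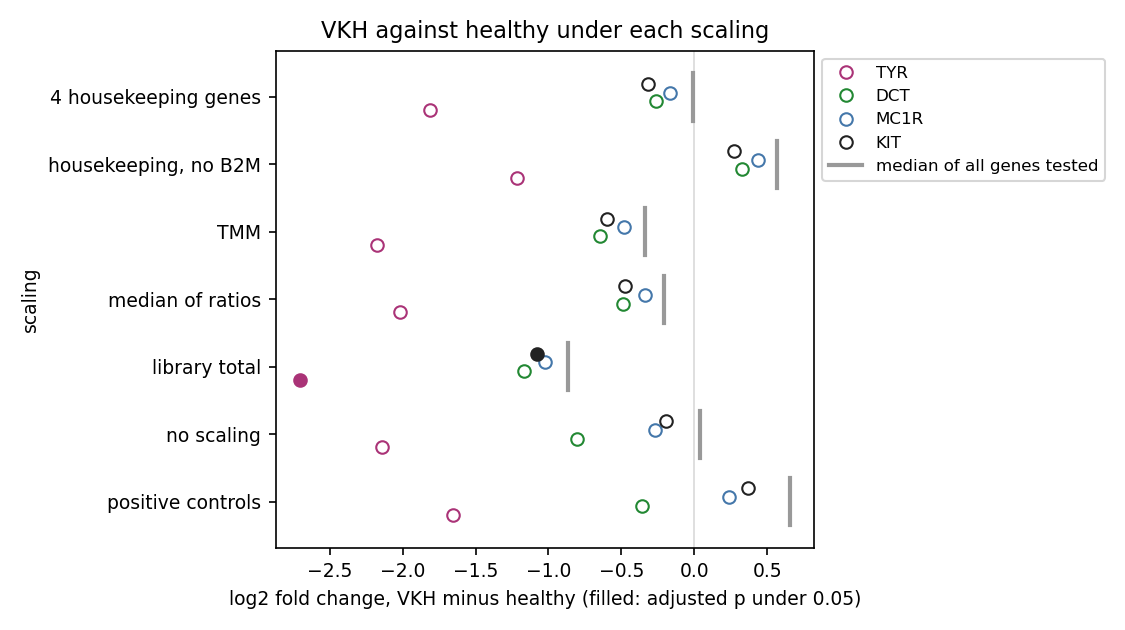
Log2 fold change of the 4 genes in VKH against healthy under 7 ways of scaling the counts, with filled points where the adjusted p from edgeR was under 0.05 and a grey bar at the median of the 156 genes. TYR lies at -2.70 to -1.21 in all of them, while DCT, MC1R and KIT change sign with the scaling.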

How the data were processed

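The authors deposited raw counts of 160 panel genes, 8 negative and 6 positive controls from a Sprint instrument, read as barcodes per probe with no alignment. The methods name nSolver, and its version is not given in the sources used here. Probe names were matched ignoring case, and the housekeeping probe left after the other 3 were named was taken as CCZ1.

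The geometric mean of the 4 housekeeping genes set the scale and entered edgeR as library size. Tests used edgeR 4.0.16 in R 4.3.3 (legacy quasi-likelihood fit), 1 fit of all 8 dogs in 3 groups and a second with the 3 cases against 5 healthy dogs. With 1 vitiligo dog, its spread was taken from the other groups. Limma 3.58.1 on log2(scaled count + 1) and DESeq2 1.42.0 were alternatives among 24 in all. Intervals are at 95%, from the standard error of the fit. Ratios and single genes were compared by exact permutation over dogs. All 4 members were kept without a filter on low counts. The text names the members with every dog, listed genes that passed or enter a ratio, and the 2 most similar genes of each member. POMC, MC2R, MC5R and CD163 fall outside this rule. The members and lists were chosen with earlier results of these data known.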

Additional observations from a re-analysis of the deposited data

Results flagged for a closer look

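DCT relative to the basal keratins KRT5 and KRT14 stood apart in healthy replicate 3. Its log2 ratio there was -5.26, whereas the other 4 healthy dogs lay between -8.23 and -7.55, and the gap to the nearest of them took 0.772 of the whole healthy range, above the limit of 0.71 for 5 samples. Of 18 measures of the melanocyte genes examined in this way 1 was singled out, and chance does so in about 1 of 20. The gaps of TYR and DCT scaled counts in the same dog, 0.696 and 0.674, stayed under the limit.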

How the results depend on the processing

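The number of members past the threshold in VKH was 0 in the main setting, 1 with DESeq2 (TYR), 2 with the library total (TYR and KIT) and 0 to 1 with single dogs left out. In the 3 cases it was 1 with the library total (KIT). By the labels the dog numbers name different dogs and pair none. Deviations of VKH and healthy dogs of equal number correlated at -0.08 and -0.13 over 156 genes. These correlations cannot decide on pairing, since the deviations of the 2 VKH dogs from their mean mirror each other. With the dog number as a replicate block 1 member (DCT, 2.89, adjusted p = 0.00357) passed in vitiligo. The block gave 28 higher and 14 lower genes in VKH against 49 and 19 without it. TYR in VKH was below 0 in all 24 alternatives, at -2.70 to -0.79. Directions of other values that passed no test turned as follows. With B2M left out, DCT, MC1R and KIT became 0.33, 0.44 and 0.27 in VKH, MC1R and KIT 0.49 and 0.24 in vitiligo and 0.46 and 0.26 in the 3 cases. With positive-control scaling, MC1R and KIT became 0.24 and 0.37 in VKH, TYR and DCT -0.81 and -0.16 in vitiligo, and DCT and KIT -0.29 and 0.091 in the 3 cases. TYR in vitiligo and DCT in the 3 cases became -0.37 and -0.16 with TMM, -0.36 and -0.36 with the library total, -0.28 and -0.027 with median of ratios and -0.46 and -0.36 without scaling, and DCT -0.36 by the methods' test. With limma DCT became 0.21 in VKH and MC1R 0.093 in vitiligo and 0.012 in the 3 cases. Against male healthy dogs DCT and MC1R became 0.31 and 0.39 in VKH, MC1R 0.51 in vitiligo, and TYR and MC1R 0.068 and 0.43 in the 3 cases. With the replicate block DCT and MC1R became 1.32 and 0.43 in VKH, MC1R 0.35 in vitiligo, and TYR and MC1R 0.076 and 0.40 in the 3 cases. With negative controls subtracted MC1R became 0.20 in VKH and 0.065 in the 3 cases, and DCT over the keratins 0.0010 in VKH. With single dogs left out the ranges were -1.16 to 0.67 (DCT), -0.43 to 0.095 (MC1R) and -0.76 to 0.31 (DCT over keratins) in VKH, -0.12 to 0.71 (TYR) and -0.25 to 0.21 (MC1R) in vitiligo, and -0.26 to 1.21 (DCT), -0.32 to 0.14 (MC1R) and -0.23 to 0.78 (DCT over keratins) in the 3 cases. The cause of these turns was not tested. No ratio passed after correction in any setting. In VKH none could, since the exact permutation p cannot go below 0.0952 there. In the 3 cases the smallest possible is 0.0357, which for DCT over TYR became 0.214 over the 6 pairs. Leaving out a dog raises these limits. The settings therefore cannot decide whether the ratios differ.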
